A study of Homo sapiens with 6 samples.

Results

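The aminoacyl-tRNA synthetases were described across 3 time points of the chemical reprogramming of BJ cells, an established line of human foreskin fibroblasts, into the cells that the series title calls FiNs. The genes were taken by their symbols: those with a letter for the amino acid followed by ARS, with or without 1 or 2 at the end, together with EPRS1, FARSA and FARSB. This gave 37 genes of 59653 gene symbols in the deposited table, 20 for enzymes that charge tRNA in the cytosol and 17 for enzymes of the mitochondria, and all 37 were among the 16327 genes with enough reads to be tested. The threonyl-tRNA synthetase relative TARS3 has another ending and was read as a companion gene.

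Each time point had 2 libraries, and all 6 came from cells given as wild type, grown on poly-D-lysine. Day 0 cells had been in DMEM with fetal bovine serum. Day 2 cells had been in neuronal induction medium with 10 µM forskolin, an activator of adenylyl cyclase. Day 5 cells had then been in neuronal maturation medium with 10 µM forskolin, which the protocol withdraws at day 5. Time, medium, loss of serum and forskolin therefore changed together and cannot be told apart, and libraries without forskolin at day 2 or day 5 were not analysed here. Whether both libraries of a time point stem from separate cultures is not stated, and the p-values reflect no more than the spread between libraries, which may be technical.

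Libraries held 17605858 to 27953926 expected counts, and the day 5 libraries were the shallowest. Levels are given as CPM, the count scaled to the size of its library with TMM factors, and changes as log2 fold changes with the standard error from edgeR's quasi-likelihood test over all 6 libraries. A gene was called at an adjusted p under 0.05 after the Benjamini-Hochberg method over all tested genes. All 8 fibroblast markers examined were tested, and their summed level was 18289.9 and 18652 CPM at day 0, 15253 and 15476 CPM at day 2, then 26495 and 26981 CPM at day 5. Of 8 neuron markers, 4 were tested, STMN2 was at 0 in every library, DCX had at most 1 count, and the summed level was 243 and 251 CPM at day 0, 149 and 156 CPM at day 2, then 106 and 111 CPM at day 5. Summed markers of glia, keratinocytes and endothelium were at or below 2.54 CPM in every library, and 3 blood markers, of which CD68 was the one tested, summed to 93.3 and 93.9 CPM at day 0, 128 and 128 CPM at day 2, then 49.2 and 45.1 CPM at day 5. Members of both lists moved in different directions. VIM had 4845 and 4857 CPM at day 0, 5049.8 and 5038 CPM at day 2, then 1458 and 1474 CPM at day 5, and THY1, DCN and S100A4 were also lower at day 5 than at day 0. COL1A2 had 4996 and 5111 CPM at day 0, 6139 and 6265 CPM at day 2, then 14195 and 14457 CPM at day 5, and COL3A1 and PDGFRB were also higher at day 5 than at day 0. COL1A1 dropped at day 2 and came partly back, with 4206 and 4363 CPM at day 0, 1047 and 1105 CPM at day 2, then 3676 and 3775 CPM at day 5. The neuron sum was mostly TUBB3, with 223 and 229 CPM at day 0, then 87.2 and 87.7 CPM at day 5. MAP2 was also lower, with 0.36 and 1.31 CPM at day 5, against 11.8 and 14.2 CPM at day 0. SNAP25 was higher, with 16.9 and 19.8 CPM at day 5, against 5.76 and 6.01 CPM at day 0. The part of these markers in the results below was not tested. In bulk RNA such as this, fewer cells of a type and less RNA per cell cannot be told apart.

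Aminoacyl-tRNA synthetases join each amino acid to its tRNA, the step that turns the genetic code into a choice of amino acid. Mitochondria translate their own small genome with a separate set of tRNAs, and most of them are charged by dedicated enzymes that are encoded in the nucleus and imported. In the cytosol a group of the enzymes is held in the multisynthetase complex on the scaffold proteins AIMP1, AIMP2 and EEF1E1, and the genes of many cytosolic enzymes are known targets of ATF4, the transcription factor of the amino acid and integrated stress responses. WARS1, which charges tryptophan tRNA, is also known as an interferon-induced gene.

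Promoter sequence was available from RefSeq (GRCh38.p14) for 30 of the 37 genes, in windows of 250 bases before and 50 bases after a gene start, 39 windows in all. VARS1, VARS2, YARS1, LARS1 and AARS2 were among those with no window. WARS1 is shown because its transcript changed most. It has starts with 979 bases between them, and the 150 bases before each are printed 5′ to 3′ on the minus strand, which is the gene's strand. In the upstream one, capitals mark the CCAAT box (CCAAT, in 34.6% of all 35116 promoter windows) and the short form of the cAMP response element (TGACG, in 24.6%), the last CCAAT running into TGACG. In the downstream one, capitals mark the core of the interferon-stimulated response element (GAAA on either side of any 2 bases, in 3.57%) and a gamma-activated site (TTCNNNGAA, in 7.66%). Both strands were searched for every motif.
WARS1 upstream start, chr14:100376328-100376477: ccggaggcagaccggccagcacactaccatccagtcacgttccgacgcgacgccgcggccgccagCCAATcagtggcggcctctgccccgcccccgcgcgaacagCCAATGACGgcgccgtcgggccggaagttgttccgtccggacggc
WARS1 downstream start, chr14:100375348-100375497: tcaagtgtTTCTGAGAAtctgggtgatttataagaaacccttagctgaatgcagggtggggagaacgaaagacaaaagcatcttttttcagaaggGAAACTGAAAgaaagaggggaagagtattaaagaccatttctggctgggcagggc
The interferon element began 55 bases before the downstream start and the gamma-activated site 142 bases before it. The deposited values are 1 per gene, so the transcripts of the 2 starts cannot be told apart.

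HARS1 and HARS2 are shown because they are the cytosolic and mitochondrial pair whose genes overlap head to head. Their RefSeq starts have 84 bases between them on chromosome 5, and the whole interval is printed on the plus strand, with the ETS-type core CGGAAG in capitals on either strand (held by 19.5% of all windows).
HARS1-HARS2 interval, chr5:140691371-140691454: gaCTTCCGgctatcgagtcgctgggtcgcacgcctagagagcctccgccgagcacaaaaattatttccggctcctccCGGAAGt
GARS1 and TARS1 are shown because, of the genes with a window, only these 2 held the C/EBP-ATF response element that ATF4 is known to bind, and they moved differently at day 2. The element (TGATGNAAT, here on the strand opposite to the gene, in 0.991% of all windows) is in capitals, and both stretches are on the plus strand.
GARS1, chr7:30594834-30594862: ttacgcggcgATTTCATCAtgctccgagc
TARS1, chr5:33440956-33440984: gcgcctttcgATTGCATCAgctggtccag
This made 2 of 16 cytosolic genes with a window and 0 of 14 mitochondrial ones. The full cAMP response element TGACGTCA (in 1.85% of all windows) was in 0 of the 30 genes, its short form in 7 cytosolic and 5 mitochondrial genes, and the interferon element in WARS1 and EARS2. The gamma-activated site was in CARS1, TARS1 and WARS1 and in the mitochondrial genes PARS2 and WARS2. The palindromic NRF1 site (in 1.24%) was in MARS2, and the E-box CACGTG (in 7.26%) was in IARS1 and in the mitochondrial genes CARS2, EARS2 and MARS2. Members are counted by gene, through any of its windows, and shares by gene were higher than those by window. Of 27305 genes, 1.22% held the C/EBP-ATF element, 2.25% the full cAMP element, 28.4% its short form and 4.38% the interferon element. The NRF1 site was held by 1.52% of genes, the E-box by 8.77% and the gamma-activated site by 9.38%. These matches describe letters in the windows and no binding was measured.

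Per kilobase of the gene length in the deposited table, WARS1 had the highest level of the 37 genes at day 0, 224 ± 0.108 CPM per kb (SD, n = 2), followed by SARS1, which charges serine tRNA, at 102 ± 2.25 CPM per kb. By day 5 the order had changed: QARS1, which charges glutamine tRNA, was highest at 90.8 ± 0.733 CPM per kb, SARS1 stood at 60.6 ± 1.07 and WARS1 at 51 ± 0.667 CPM per kb. FARSB was the lowest cytosolic gene at day 0, at 4.16 ± 0.029 CPM per kb. Among mitochondrial genes CARS2 was highest at day 0 (31.3 ± 0.116 CPM per kb) and WARS2 lowest (1.9 ± 0.0819 CPM per kb). The tryptophan enzymes thus stood at opposite ends of their classes at day 0.

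**Figure D1:**
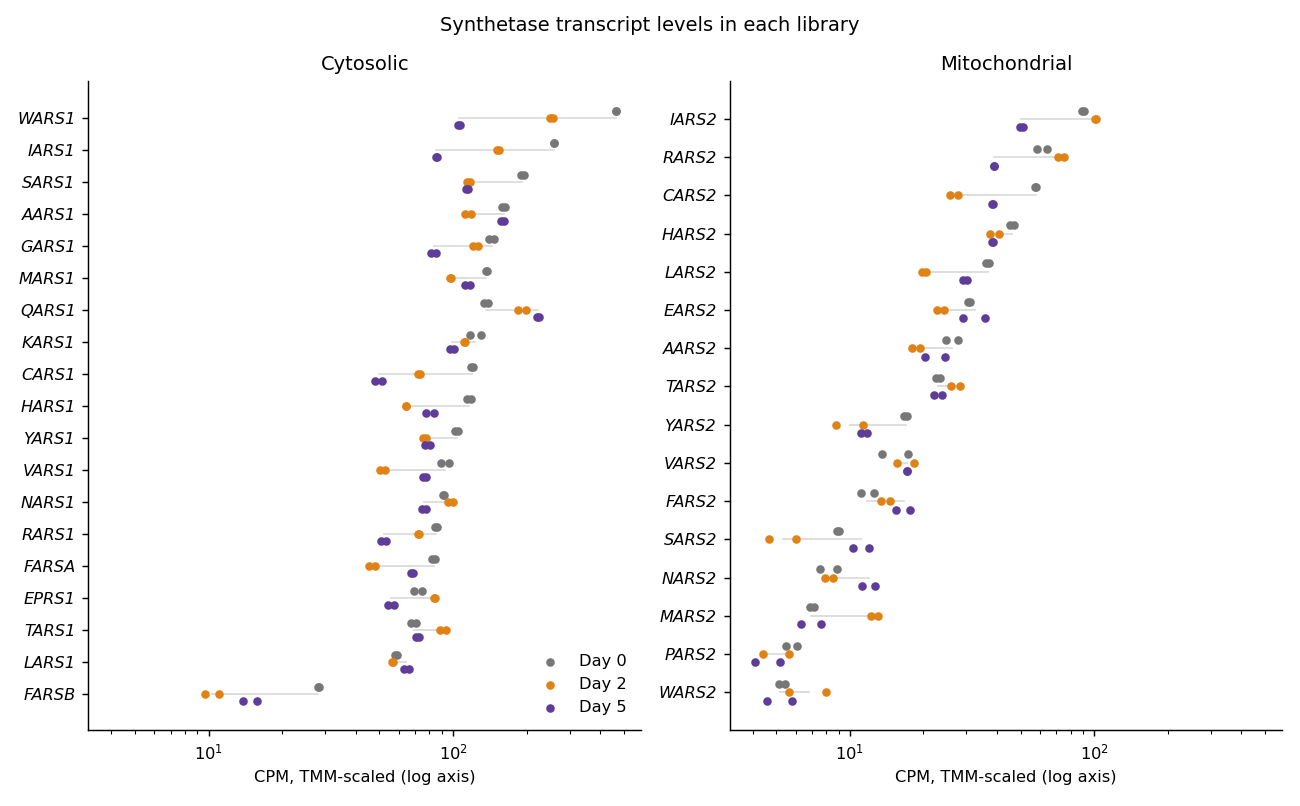
Level of each synthetase transcript in each library, as TMM-scaled CPM on a log axis, for the cytosolic (left) and mitochondrial genes (right) described one by one. Points are libraries, colours are days, and grey lines join the lowest and highest day means; WARS1 has 107 and 105 CPM at day 5, against 465 and 465 CPM at day 0, while WARS2 lies between 4.59 and 8.0 CPM in all 6 libraries.

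The summed levels of both classes were lower at each later day, and the ratio of the cytosolic to the mitochondrial sum was lower after day 0. The 20 cytosolic genes summed to 2551 and 2576 CPM at day 0, 1901 and 1933 CPM at day 2, then 1702 and 1691 CPM at day 5. The 17 mitochondrial genes summed to 458 and 465 CPM at day 0, 424 and 421 CPM at day 2, then 373 and 372 CPM at day 5. In both sums the libraries of the 3 days kept apart. Abundant genes weigh most in such sums. In the mitochondrial one, IARS2 went from a mean of 90.03 CPM at day 0 to 50.3 CPM at day 5. RARS2 went from 61.2 to 38.9 CPM and CARS2 from 57.6 to 38.4 CPM. The median log2 fold change of the 17 genes at day 5 against day 0 was -0.03, with 3 called higher and 7 lower. The ratio of the cytosolic to the mitochondrial sum, which does not depend on the scaling between libraries, was 5.57 and 5.54 at day 0, 4.49 and 4.59 at day 2, then 4.56 and 4.55 at day 5. It was lower in all 4 later libraries and did not separate day 2 from day 5. With sums of CPM per kb the ratio was 5.46 and 5.44 at day 0, 4.47 and 4.56 at day 2, then 4.26 and 4.29 at day 5.

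WARS1 alone carried a large part of the cytosolic sum. Its share was 18.2 and 18.1% at day 0, 13.1 and 13.3% at day 2, then 6.29 and 6.21% at day 5. With WARS1 left out of the cytosolic sum, the ratio was 4.55 and 4.54 at day 0, 3.9 and 3.98 at day 2, then 4.27 and 4.27 at day 5. The later libraries remained below the day 0 libraries, and day 5 then lay above day 2.

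**Figure D2:**
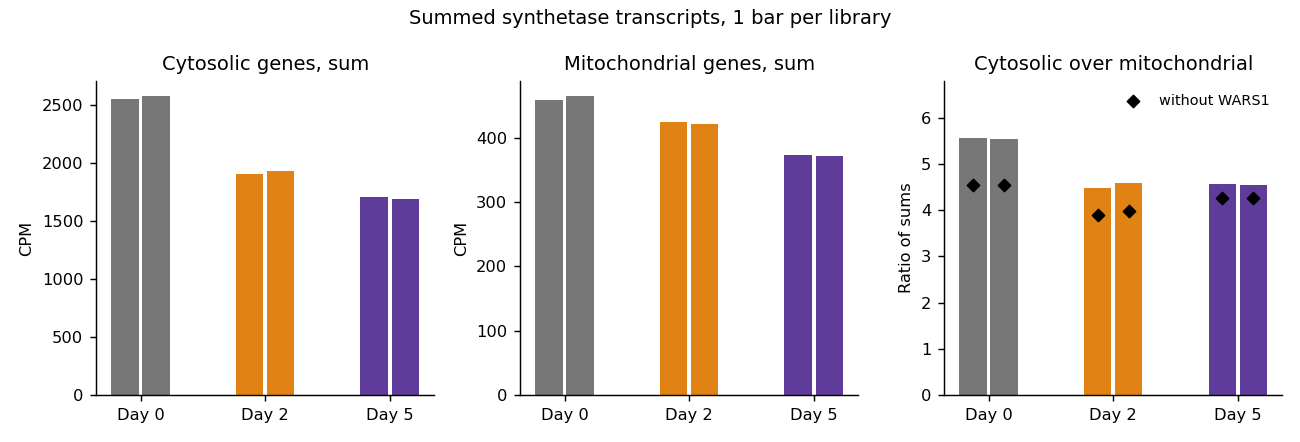
Summed CPM of the cytosolic genes (left), of the mitochondrial genes (middle), and the ratio of the cytosolic to the mitochondrial sum (right), with 1 bar per library and diamonds for the ratio without WARS1. The cytosolic sum is 1702 and 1691 CPM at day 5, against 2551 and 2576 CPM at day 0, and the ratio is above 5 at day 0 only.

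Day 2 was compared with day 0 to see how the synthetases stood after the move to induction medium with forskolin. Of the 20 cytosolic genes 14 fell, 5 rose and LARS1 (leucine) passed in neither direction, and their log2 fold changes ran from -1.45 for FARSB to 0.49 for QARS1 with a median of -0.46. Of the 17 mitochondrial genes 7 fell, 5 rose and 5 passed in neither direction, with changes from -1.11 for CARS2 to 0.84 for MARS2. Their median was 0.00, the same as that of all tested genes, but it read -0.11 without day 0 replicate 1 and 0.12 without day 0 replicate 2. It read -0.18 with library totals in place of TMM factors, a scaling that moved the median of all genes by the same -0.18. Of all tested genes, 33.4% were called higher and 33.4% lower, 66.8% in all, so a call by itself was common. Of the calls over all genes, 50.01% were higher, and 38.1% were with library totals. Changes shown to exceed 1.5-fold (glmTreat in edgeR) were rarer, 15.3% of all genes higher and 12.9% lower. By that test 8 cytosolic genes were lower and 0 higher, and 2 mitochondrial genes were lower and 1 higher. These counts depend on the standard error as well as on the size of a change. The cytosolic CARS1 (-0.72 ± 0.04) and SARS1 (-0.73 ± 0.03) passed that test, while the mitochondrial SARS2 (-0.74 ± 0.15) and YARS2 (-0.75 ± 0.12) did not.

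FARSB and FARSA, the subunits of the cytosolic phenylalanyl-tRNA synthetase, both fell at day 2 and not to the same degree. FARSB had 11 and 9.64 CPM at day 2, against 28 and 28.3 CPM at day 0 (log2 fold change -1.45 ± 0.10, adjusted p = 6.4e-10, edgeR), then 15.8 and 13.8 CPM at day 5. FARSA had 45.2 and 48.1 CPM at day 2, against 82.3 and 84.4 CPM at day 0 (-0.84 ± 0.05, adjusted p = 9.4e-11, edgeR), then 67.1 and 68.6 CPM at day 5. In each library the ratio of FARSA to FARSB in CPM, not corrected for length, was 2.94 and 2.99 at day 0, 4.13 and 5.00 at day 2, then 4.25 and 4.98 at day 5. All 4 later libraries lay above both day 0 libraries in that ratio. The mitochondrial phenylalanyl enzyme is a single chain from FARS2, which had 14.6 and 13.4 CPM at day 2, against 11.1 and 12.6 CPM at day 0, and did not pass the test (adjusted p = 0.0676, edgeR).

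WARS1 had 249 and 257 CPM at day 2, against 465 and 465 CPM at day 0, a log2 fold change of -0.88 ± 0.03 (adjusted p = 1.2e-14, edgeR). HARS1 (histidine) had 64.4 and 64.3 CPM at day 2, against 118 and 114 CPM at day 0 (-0.85 ± 0.05, adjusted p = 3.3e-11). VARS1 (valine) had 50.1 and 52.9 CPM at day 2, against 89.2 and 96.4 CPM at day 0 (-0.85 ± 0.05, adjusted p = 1.3e-10). In each of these genes both day 2 libraries lay well below both day 0 libraries. The genes that rose did so by less: TARS1 (threonine) had 93.3 and 88.1 CPM at day 2, against 67.3 and 70.7 CPM at day 0 (0.39 ± 0.05, adjusted p = 1.0e-06). The bifunctional EPRS1 (glutamate and proline) had 84.7 and 83.7 CPM at day 2, against 69 and 74.5 CPM at day 0 (0.23 ± 0.05, adjusted p = 5.0e-04), and this call was lost with library totals (adjusted p = 0.429, the highest of its alternatives, which went down to 3.8e-05). NARS1 (asparagine) passed narrowly, with 95.8 and 99.9 CPM at day 2, against 90.9 and 92 CPM at day 0 (0.10 ± 0.04, adjusted p = 0.0474). Its adjusted p was between 0.0384 and 0.306 over the alternatives, and its log2 fold change was -0.09 with library totals.

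Among the mitochondrial genes, CARS2 (cysteine) fell most at day 2, to 27.6 and 25.7 CPM, against 57.4 and 57.7 CPM at day 0 (-1.11 ± 0.06, adjusted p = 2.5e-11, edgeR). Exons of CARS2 and of ING1 on the opposite strand share 326 bases, and ING1 averaged 700.5 counts at day 2, against 278 counts at day 0. LARS2 (leucine) had 20.5 and 19.8 CPM at day 2, against 37 and 36.2 CPM at day 0 (-0.86 ± 0.07, adjusted p = 7.8e-09). YARS2 (tyrosine) had 8.75 and 11.3 CPM at day 2, against 16.7 and 17.1 CPM at day 0 (-0.75 ± 0.12, adjusted p = 2.6e-05). SARS2 (serine) had 4.66 and 6.03 CPM at day 2, against 8.84 and 9.07 CPM at day 0 (-0.74 ± 0.15, adjusted p = 3.3e-04), and shares 349 exonic bases with MRPS12 on the opposite strand. SARS2 also shares 1492 exonic bases with AC011455.2 on the same strand, which averaged 0 counts at day 0 and 2.18 counts at day 2. In all 4 genes the libraries of the 2 days did not overlap.

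MARS2, the mitochondrial methionyl-tRNA synthetase, moved the other way. It had 13 and 12.2 CPM at day 2, against 6.9 and 7.15 CPM at day 0 (0.84 ± 0.13, adjusted p = 1.8e-05, edgeR), the only one of the 37 genes that was higher at day 2 by more than 1.5-fold in the glmTreat test. Its cytosolic counterpart MARS1 had 98 and 97.3 CPM at day 2, against 138 and 137 CPM at day 0 (-0.49 ± 0.04, adjusted p = 3.7e-09). MARS1 shares 355 exonic bases with DDIT3 on the opposite strand, and DDIT3 was also lower at day 2. RARS2 (arginine) had 71 and 74.9 CPM at day 2, against 63.9 and 58.4 CPM at day 0 (0.26 ± 0.05, adjusted p = 3.9e-04). IARS2 (isoleucine) had 102 and 101 CPM at day 2, against 89.5 and 90.6 CPM at day 0 (0.17 ± 0.04, adjusted p = 0.00128). TARS2 (threonine) had 28.1 and 25.9 CPM at day 2, against 23.3 and 22.6 CPM at day 0 (0.23 ± 0.08, adjusted p = 0.0158). The calls of RARS2, IARS2 and TARS2 were lost with library totals, under which IARS2 read -0.01, and their adjusted p reached at most 0.244, 0.775 and 0.626 over the alternatives, against lowest values of 1.5e-05, 8.6e-04 and 0.0135.

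Day 5 was compared with day 0 over the whole course. Of the cytosolic genes 15 fell, 2 rose (QARS1 and LARS1, the second with adjusted p values from 0.00895 to 0.265 over the alternatives) and 3 passed in neither direction, with a median log2 fold change of -0.34 and a range from -2.13 for WARS1 to 0.70 for QARS1. Of the mitochondrial genes 7 fell, 3 rose and 7 passed in neither direction, with a median of -0.03 and a range from -0.84 for IARS2 to 0.54 for NARS2. All tested genes had a median of 0.04, with 35.8% called higher and 34.1% lower, 69.9% in all. Of those calls 51.2% were higher, and 39% were with library totals, a scaling that moved the median of all genes by -0.21. By more than 1.5-fold, 7 cytosolic genes were lower and 1 was higher, and 1 mitochondrial gene was lower and 0 higher, where 17.4% of all genes were lower and 17.9% higher. This comparison shares its day 0 libraries with the comparison of day 2 with day 0.

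**Figure D3:**
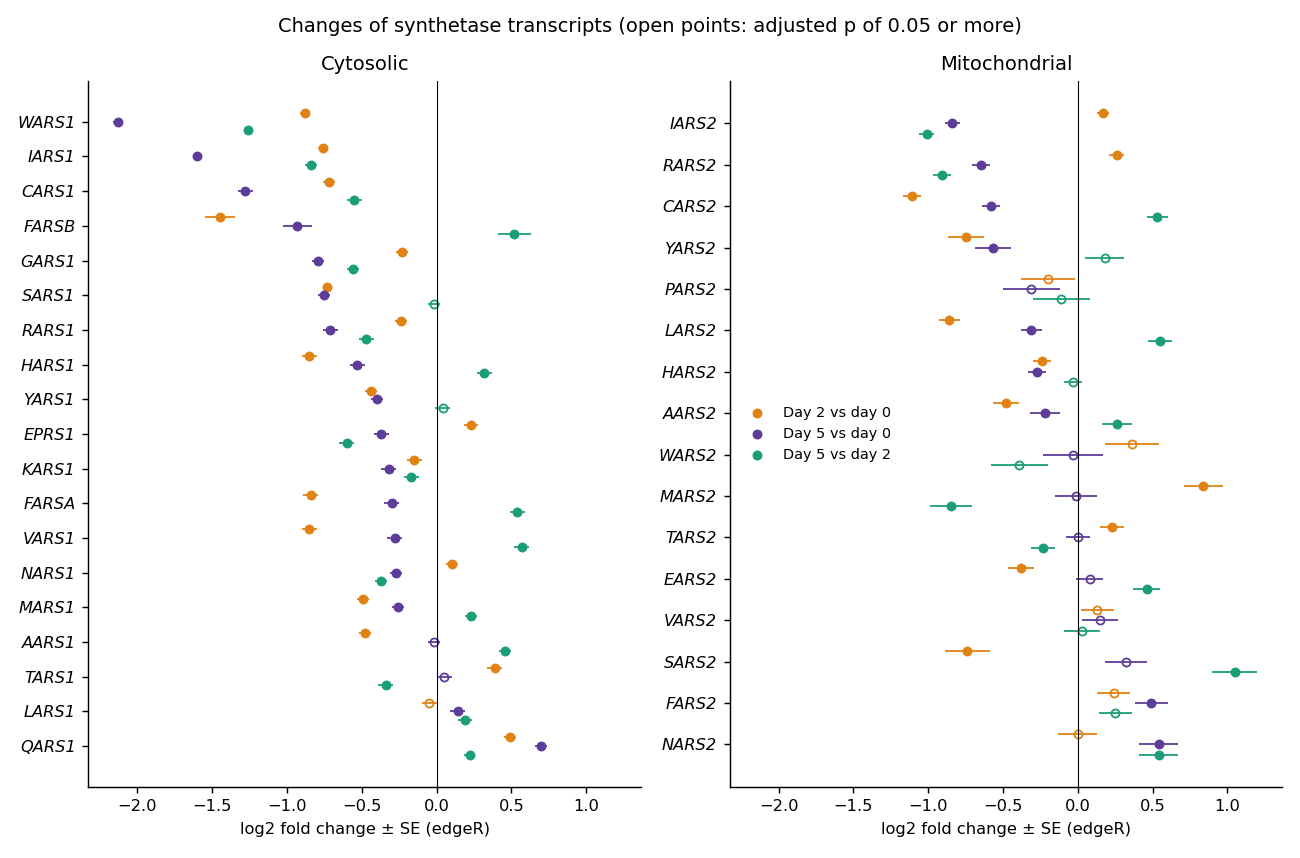
Log2 fold change of each synthetase in the 3 comparisons, with bars for ± 1 standard error from edgeR, for cytosolic (left) and mitochondrial genes (right); filled points have an adjusted p under 0.05. Genes run downward from the lowest to the highest change of day 5 against day 0, so WARS1 (-2.13) and IARS2 (-0.84) head the panels and QARS1 (0.70) and NARS2 (0.54) close them.

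The 5 largest falls at day 5 among the cytosolic genes were those of WARS1, IARS1, CARS1, FARSB and GARS1. WARS1 had 107 and 105 CPM at day 5, against 465 and 465 CPM at day 0, a log2 fold change of -2.13 ± 0.03 (adjusted p = 1.9e-19, edgeR), and 6.09% of all tested genes had an equal or lower one. IARS1 (isoleucine), part of the multisynthetase complex, had 85.8 and 85.2 CPM at day 5, against 258 and 259 CPM at day 0 (-1.60 ± 0.03, adjusted p = 5.8e-17). CARS1 (cysteine) had 51.3 and 47.8 CPM at day 5, against 119 and 121 CPM at day 0 (-1.28 ± 0.05, adjusted p = 1.3e-13). These 3 were the members with a log2 fold change below -1. FARSB remained lower (-0.93 ± 0.10, adjusted p = 2.0e-07). GARS1, the single gene for the cytosolic and mitochondrial glycyl enzymes, had 81.5 and 85.4 CPM at day 5, against 141 and 147 CPM at day 0 (-0.79 ± 0.04, adjusted p = 2.6e-11). KARS1, which likewise serves both compartments (lysine), had a log2 fold change of -0.32 ± 0.05 (adjusted p = 1.8e-05).

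QARS1 went against its class, and it was picked out after its values were seen. It had 139.6 and 134 CPM at day 0, 184 and 199 CPM at day 2, then 221 and 224 CPM at day 5, with no overlap between days. Its log2 fold change was 0.70 ± 0.04 at day 5 against day 0 (adjusted p = 2.9e-11, edgeR), and 76.1% of all tested genes had an equal or lower one. It was the only synthetase called higher in both steps. Mitochondria have no glutaminyl-tRNA synthetase of their own and make glutaminyl-tRNA through the amidotransferase of GATB, GATC and QRSL1, from tRNA charged with glutamate by EARS2. At day 5 against day 0, 0 of these 3 subunit genes passed the test (GATB -0.04, GATC 0.07, QRSL1 -0.30), with QRSL1 nearest at an adjusted p of 0.0522 (edgeR). At day 2, GATB (12.7 and 12.7 CPM, against 16.4 and 19.8 CPM at day 0) and QRSL1 (9.08 and 7.33 CPM, against 12.5 and 11.6 CPM at day 0) fell, with log2 fold changes of -0.51 ± 0.12 and -0.56 ± 0.13, and EARS2 fell as well (-0.38 ± 0.09, adjusted p = 8.6e-04).

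Among mitochondrial genes at day 5, IARS2 had 50.9 and 49.7 CPM, against 89.5 and 90.6 CPM at day 0 (-0.84 ± 0.05, adjusted p = 3.3e-11, edgeR). RARS2 had 38.8 and 39 CPM at day 5, against 63.9 and 58.4 CPM at day 0 (-0.65 ± 0.06, adjusted p = 4.2e-08). CARS2 had 38.1 and 38.7 CPM at day 5, against 57.4 and 57.7 CPM at day 0 (-0.58 ± 0.06, adjusted p = 1.2e-07), and YARS2 11.1 and 11.7 CPM at day 5, against 16.7 and 17.1 CPM at day 0 (-0.57 ± 0.12, adjusted p = 5.4e-04). In these 4 genes both day 5 libraries lay below both day 0 libraries. Among the genes that rose, NARS2 had 12.7 and 11.2 CPM at day 5, against 7.53 and 8.87 CPM at day 0 (0.54 ± 0.13, adjusted p = 0.00177), and FARS2 had 15.5 and 17.7 CPM at day 5, against 11.1 and 12.6 CPM at day 0 (0.49 ± 0.11, adjusted p = 0.00106).

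Day 5 was compared with day 2 to separate the second step from the first. Of the cytosolic genes 8 rose and 10 fell, with a median of -0.10, and of the mitochondrial genes 6 rose and 4 fell, with a median of 0.03, against a median of 0.01 over all tested genes. Over all genes 32.1% were called higher and 33.7% lower, 65.8% in all. By more than 1.5-fold, 2 cytosolic genes (WARS1 and IARS1) were lower and 0 higher, and 3 mitochondrial genes (IARS2, RARS2 and MARS2) were lower and 1 (SARS2) higher, where 15.6% of all genes were lower and 13.3% higher. This comparison shares the day 2 libraries with that of day 2 and day 0, and the 2 are not independent.

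Read over both steps, the genes split into several courses. The share of all tested genes on each course was not worked out, so the counts of genes per course have no background beside them. The largest cytosolic sets were 6 genes that fell in both steps (WARS1, IARS1, CARS1, GARS1, RARS1 (arginine) and KARS1, whose calls were each lost without 1 library) and 6 that fell and then rose (AARS1, FARSA, FARSB, HARS1, MARS1 and VARS1). SARS1 (serine) and YARS1 (tyrosine) fell at day 2 and passed in neither direction after it. EPRS1, NARS1 and TARS1 were among 4 that rose and then fell, QARS1 rose in both steps, and LARS1 rose in the second only. In the mitochondrial class, 0 of 17 genes fell in both steps, and CARS2, LARS2, EARS2, AARS2 and SARS2 fell and then rose. Standard errors were mostly larger in this class, so a change of the same size passed less readily. IARS2, RARS2, MARS2 and TARS2 rose and then fell, and PARS2, VARS2, WARS2 and FARS2 passed in neither step. With library totals the first-step rise was not called for EPRS1, NARS1, IARS2, RARS2 and TARS2, so their place among the genes that rose and then fell depends on the scaling.

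WARS1 and IARS1 fell again in the second step. WARS1 had 107 and 105 CPM at day 5, against 249 and 257 CPM at day 2 (-1.26 ± 0.03, adjusted p = 7.2e-16, edgeR), and IARS1 85.8 and 85.2 CPM at day 5, against 154 and 151 CPM at day 2 (-0.84 ± 0.04, adjusted p = 1.3e-12). GARS1 had 81.5 and 85.4 CPM at day 5, against 121 and 126 CPM at day 2 (-0.56 ± 0.04, adjusted p = 4.5e-09), after a log2 fold change of -0.23 ± 0.04 in the first step. EPRS1 fell to 57.4 and 54.1 CPM at day 5, against 84.7 and 83.7 CPM at day 2 (-0.60 ± 0.05, adjusted p = 2.8e-08). The genes that recovered differed in how far they came back. AARS1 (alanine) had 163 and 159 CPM at day 0, 112 and 119 CPM at day 2, then 161 and 157 CPM at day 5, so that its day 5 and day 0 libraries overlapped with TMM scaling. With library totals AARS1 was called lower at day 5 against day 0 (adjusted p = 6.0e-05 in edgeR, the lowest of its alternatives, which went up to 0.967), one of 18 cytosolic genes called lower there. VARS1 had 77.7 and 75.6 CPM at day 5, against 50.1 and 52.9 CPM at day 2 (0.57 ± 0.05, adjusted p = 6.5e-08), still below both day 0 libraries.

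The mitochondrial genes IARS2 and RARS2 turned round between the steps. IARS2 had 50.9 and 49.7 CPM at day 5, against 102 and 101 CPM at day 2 (-1.01 ± 0.05, adjusted p = 3.0e-12, edgeR), and RARS2 38.8 and 39 CPM at day 5, against 71 and 74.9 CPM at day 2 (-0.91 ± 0.06, adjusted p = 4.9e-10). MARS2 came back to 6.3 and 7.59 CPM at day 5, against 13 and 12.2 CPM at day 2 (-0.85 ± 0.14, adjusted p = 3.0e-05), and these values span its day 0 levels of 6.9 and 7.15 CPM. SARS2 did the opposite, with 10.3 and 12 CPM at day 5, against 4.66 and 6.03 CPM at day 2 (1.05 ± 0.15, adjusted p = 1.1e-05). LARS2 (0.55 ± 0.08), CARS2 (0.53 ± 0.07), EARS2 (0.46 ± 0.09) and AARS2 (0.26 ± 0.10) also rose in the second step. The AARS2 call had an adjusted p of 0.0349 and was lost in several alternatives, where the values ran from 0.00744 to 0.426. TARS2 had a log2 fold change of -0.23 ± 0.08, with adjusted p values from 0.0101 to 0.142 over the alternatives.

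**Figure D4:**
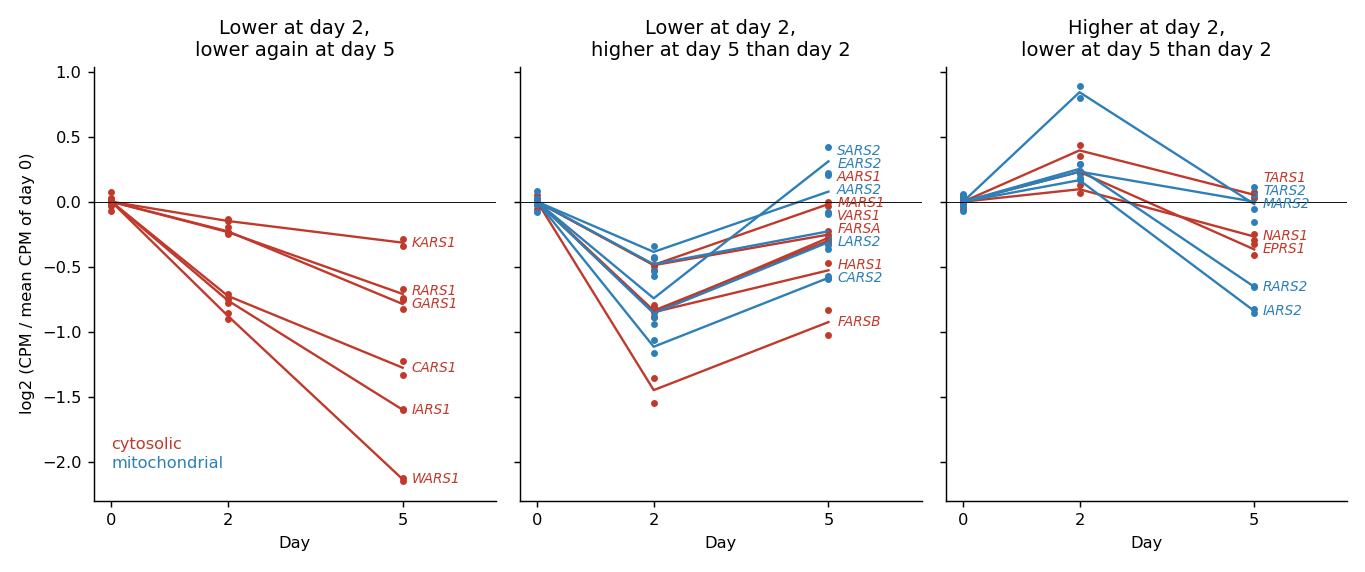
Log2 of CPM over the day 0 mean for genes called lower in both steps (left), lower then higher (middle) and higher then lower (right); lines join day means and points are libraries, with cytosolic genes in red and mitochondrial genes in blue. The left panel holds 6 cytosolic and 0 mitochondrial genes, counts that have no share of all tested genes beside them. In the right panel the day 2 values of NARS1 and IARS2 turn slightly negative when library totals replace TMM factors.

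Cytosolic and mitochondrial enzymes for the same amino acid were set side by side in 18 pairs of genes, in which FARS2 was paired with FARSA and FARSB and EPRS1 with EARS2 and PARS2. At day 2 against day 0 the cytosolic gene had the lower log2 fold change in 8 of 18 pairs, with a median difference of 0.00. For day 5 against day 0 it had the lower one in 14 of 18, with a median difference of -0.39, and for day 5 against day 2 in 10 of 18, with a median of -0.13. The pairs are not independent of the class counts above and were given no test. At day 2 the differences ran from -1.69 for FARSB and FARS2 to 0.81 for LARS1 and LARS2. They were 0.00 for alanine and for serine, pairs that were not counted among the 8. The count at day 2 was thus close to even and does not weigh the size of the differences.

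Tryptophan was the most uneven pair. The ratio of WARS1 to WARS2 in each library, in CPM, was 85.4 and 90.9 at day 0, 31.2 and 45.8 at day 2, then 18.4 and 22.9 at day 5, so the libraries of the 3 days kept apart. WARS2 had only 4.59 to 8.0 CPM and passed in no comparison. Methionine followed another course, with a ratio of MARS1 to MARS2 of 19.96 and 19.2 at day 0, 7.54 and 7.97 at day 2, then 17.7 and 15.5 at day 5. In isoleucine the ratio of IARS1 to IARS2 was 2.88 and 2.86 at day 0, 1.52 and 1.49 at day 2, then 1.68 and 1.71 at day 5. For cysteine, CARS1 to CARS2 gave 2.08 and 2.09 at day 0, 2.66 and 2.81 at day 2, then 1.35 and 1.24 at day 5, a rise and then a drop below the start. In the threonine pair both genes were called higher at day 2, with log2 fold changes of 0.39 for TARS1 and 0.23 for TARS2, the second a call that was lost with library totals.

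**Figure D5:**
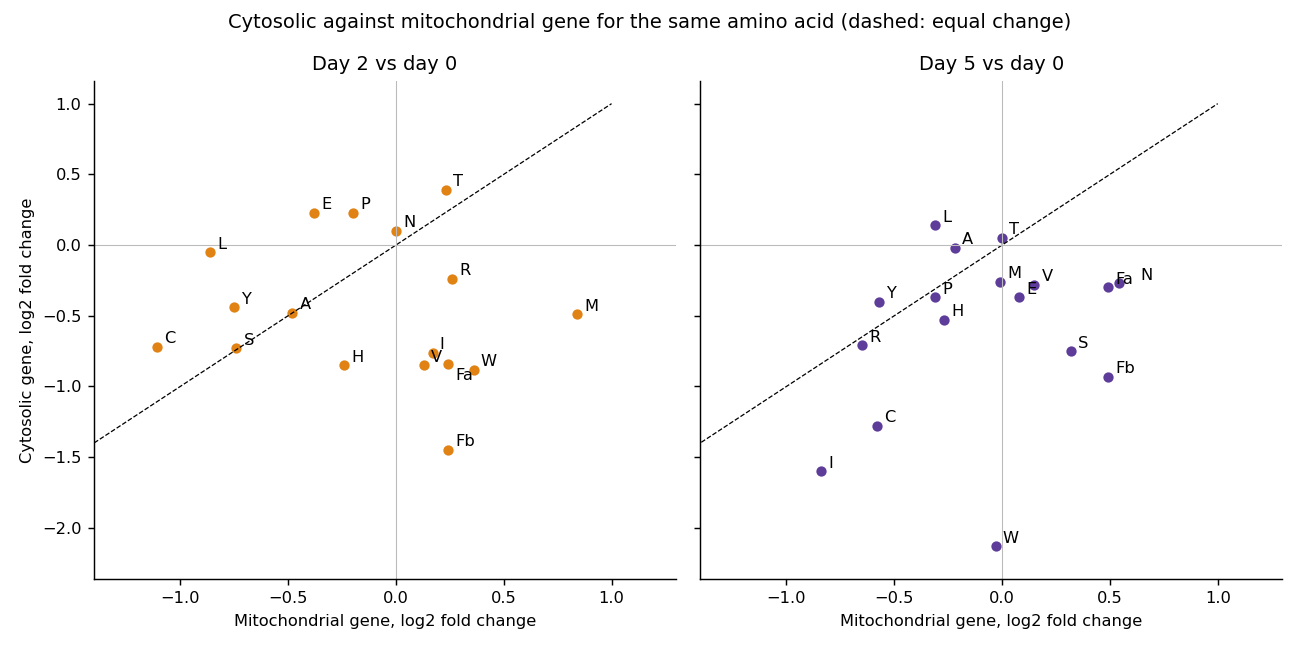
Log2 fold change of the cytosolic gene (vertical) against that of the mitochondrial gene for the same amino acid (horizontal), for day 2 against day 0 (left) and day 5 against day 0 (right), for the pairs described one by one. Letters are the amino acid in the 1-letter code, Fa and Fb are FARSA and FARSB against FARS2, and E and P are EPRS1 against EARS2 and PARS2; points below the dashed line have the lower change in the cytosolic gene, and W lies farthest below it at right.

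The histidine pair shares the interval printed above and did not keep a fixed ratio. HARS1 had 118 and 114 CPM at day 0, 64.4 and 64.3 CPM at day 2, then 77.2 and 83.7 CPM at day 5. HARS2 had 45.3 and 47 CPM at day 0, 40.7 and 37.5 CPM at day 2, then 38.4 and 38 CPM at day 5. HARS2 had a log2 fold change of -0.24 ± 0.06 at day 2 (adjusted p = 0.00173, edgeR), beside -0.85 ± 0.05 for HARS1, and the ratio of HARS1 to HARS2 was 2.61 and 2.42 at day 0, 1.58 and 1.71 at day 2, then 2.01 and 2.2 at day 5. HARS1 rose again at day 5 against day 2 (0.32 ± 0.05, adjusted p = 2.2e-05), and HARS2 did not pass (-0.03 ± 0.06). Exons of the 2 genes overlap by 437 bases on opposite strands in GENCODE release 29, and since the strand setting of the counting is not given in the sources used here, reads from the overlap cannot be assigned to either.

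Grouped by structure, the 8 synthetases of the multisynthetase complex and the 12 other cytosolic genes had different medians. At day 2 against day 0, 3 of the 8 complex genes rose (among them QARS1 and EPRS1) and 4 fell, with a median log2 fold change of -0.10, while 2 of the 12 others rose and 10 fell, with a median of -0.73. At day 5 against day 0, 2 of the 8 rose and 5 fell (median -0.29), and 0 of the 12 rose and 10 fell (median -0.46). The difference between the groups was not tested. The catalytic classes, which differ in the fold of the active site, were close to each other in the cytosol: the 9 class I genes had medians of -0.49 at day 2 and -0.40 at day 5, and the 10 class II genes had medians of -0.35 and -0.31, with EPRS1, which holds both classes, left out. Mitochondrial genes differed more at day 5 against day 0. The 9 of class I had a median of -0.31 (0 rose, 5 fell) and the 8 of class II 0.16 (3 rose, 2 fell). Their medians at day 2 were 0.13 and -0.10. These differences were not tested.

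The scaffold proteins of the complex did not move as a unit. AIMP2 had 7.54 and 8.74 CPM at day 2, against 16.9 and 17.4 CPM at day 0 (-1.07 ± 0.12, adjusted p = 5.2e-07, edgeR), and returned to 13.4 and 16.6 CPM at day 5. EEF1E1 had 7.29 and 8.52 CPM at day 2, against 12 and 12.8 CPM at day 0 (-0.64 ± 0.14, adjusted p = 6.8e-04), and stayed at 6.42 and 8.79 CPM at day 5. AIMP1 had 29.3 and 27.4 CPM at day 2, against 22.7 and 21.7 CPM at day 0 (0.35 ± 0.08, adjusted p = 0.00112), a call that was lost with library totals. Among relatives of the synthetases, TARS3 had 10.9 and 13.4 CPM at day 5, against 18.6 and 19.6 CPM at day 0 (-0.65 ± 0.11, adjusted p = 4.2e-05). Of the 7 relatives and editing genes, 0 rose and 4 fell at day 2, and 2 rose (AARSD1 and DTD2, which act on mischarged tRNA) and 4 fell at day 5.

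The genes that make and carry tRNA split by step. Of 23 tested tRNA maturation genes, 16 fell and 3 rose at day 2 against day 0 (median -0.60), while 15 fell and 2 rose at day 5 against day 0 (median -0.31). POP1, the large protein of RNase P and RNase MRP, had 4.96 and 6.18 CPM at day 2, against 23.8 and 24.9 CPM at day 0 (-2.12 ± 0.12, adjusted p = 5.9e-11, edgeR). XPOT, the nuclear export receptor of tRNA, rose to 100.5 and 92.3 CPM at day 2, against 59.2 and 58.7 CPM at day 0 (0.71 ± 0.05, adjusted p = 6.6e-10). Of 6 genes for the factors that bring charged tRNA to the ribosome, 5 rose and TSFM fell at day 2, where 3 rose with library totals. EEF1A1, which carries charged tRNA to the cytosolic ribosome, had 13455 and 13360.5 CPM at day 2, against 7006 and 6991 CPM at day 0 (0.94 ± 0.01, adjusted p = 2.1e-20). Reads of EEF1A1 and of ribosomal protein genes can be shared with their many pseudogenes, so these levels are uncertain.

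Against day 0, most ribosomal protein genes of the cytosol rose where most cytosolic synthetases fell, while in the second step both had medians below 0. At day 2 against day 0, 79 of 83 tested cytosolic ribosomal protein genes rose and 2 fell (median 0.69), and at day 5 against day 0, 73 rose and 4 fell (median 0.46). In the second step 61 fell and 6 rose (median -0.22), beside a median of -0.10 for the cytosolic synthetases. Mitochondrial ribosomal protein genes leaned downward, with 46 of 78 lower and 11 higher at day 2 (median -0.28) and 37 lower and 10 higher at day 5 (median -0.20), and 60 lower and 2 higher at day 2 with library totals. In the second step 27 rose and 22 fell (median 0.05). Single genes differed in course: MRPL15 had 32.9 and 33.8 CPM at day 0, 13.3 and 15.6 CPM at day 2, then 32.5 and 32.8 CPM at day 5, whereas MRPL44 had 48.9 and 44.7 CPM at day 0, 25.5 and 26 CPM at day 2, then 24.5 and 23.1 CPM at day 5.

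The ATF4 amino acid response, to which many cytosolic synthetase genes belong, gave no common direction. Of 31 tested genes, 15 rose and 12 fell at day 2 (median 0.10, and -0.09 with library totals), and 14 rose and 12 fell at day 5 (median 0.01, and -0.19 with library totals). The ATF4 transcript had 364 and 362 CPM at day 2, against 220.1 and 224 CPM at day 0 (0.71 ± 0.03, adjusted p = 1.5e-13, edgeR), then 399.8 and 409 CPM at day 5. The neutral amino acid transporters SLC1A5 (589 and 611 CPM at day 2, against 212 and 215 CPM at day 0) and SLC38A2 (1309 and 1272 CPM at day 2, against 517 and 499.8 CPM at day 0) rose as well. At day 5 SLC38A2 had 274 and 264 CPM, below day 0 (-0.92 ± 0.03, adjusted p = 3.4e-15). ASNS, the asparagine synthetase, had 8.75 and 10.3 CPM at day 2, against 13.7 and 14.4 CPM at day 0 (-0.56 ± 0.13, adjusted p = 0.00102), and DDIT3 11.6 and 10.3 CPM at day 2, against 15.9 and 17.2 CPM at day 0 (-0.61 ± 0.10, adjusted p = 6.7e-05). At day 5 neither ASNS (13.7 and 17.9 CPM) nor DDIT3 (14.4 and 14.9 CPM) passed against day 0. CHAC1, a glutathione-degrading enzyme of the same response, had 2.28 and 2.02 CPM at day 5, against 49.5 and 48.4 CPM at day 2 (-4.51 ± 0.11, adjusted p = 7.1e-16). ATF4 is regulated largely through translation, which these libraries do not measure.

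GARS1 and TARS1, which carry the C/EBP-ATF element printed above, parted at day 2: GARS1 fell (-0.23 ± 0.04) and TARS1 rose (0.39 ± 0.05). EIF2AK4, the kinase GCN2 that senses uncharged tRNA, had 164 and 163 CPM at day 2, against 134 and 131 CPM at day 0 (0.30 ± 0.04, adjusted p = 2.7e-06, edgeR), then 97 and 88.5 CPM at day 5 (-0.52 ± 0.04 against day 0, adjusted p = 1.1e-08). PPP1R15A, the stress-induced subunit of the eIF2α phosphatase, had 146 and 150.05 CPM at day 0, 90.8 and 86.3 CPM at day 2, then 47.3 and 46.2 CPM at day 5. Of the 15 eIF2 kinases and regulators, 6 rose and 9 fell at day 2, and 4 rose and 8 fell at day 5.

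The interferon response genes fell in the same libraries as WARS1. Of 19 tested, 18 fell and 0 rose at day 2 against day 0 (median -2.15), and 19 fell at day 5 against day 0 (median -3.49). WARS1 changed by -0.88 ± 0.03 and -2.13 ± 0.03 in the same comparisons, while IRF1, a transcription factor of that response, did not pass at day 2 (83.3 and 84.4 CPM, against 77.4 and 84.3 CPM at day 0) and had 14 and 16.2 CPM at day 5. EARS2, the other synthetase with the interferon element in its window, had 22.8 and 24.3 CPM at day 2, against 30.3 and 31 CPM at day 0, then 35.7 and 29.1 CPM at day 5, where it did not pass against day 0 (0.08 ± 0.09). Whether the fall of WARS1 belongs to the interferon response was not tested.

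Several other members share exons with a neighbour. Reads from shared bases on opposite strands cannot be told apart without the strand setting, and those on the same strand not even with it. WARS1 shares 287 exonic bases with WDR25, YARS1 396 with S100PBP, EARS2 370 with UBFD1 and WARS2 180 with its antisense RNA, all on opposite strands, and VARS2 shares 1858 bases with GTF2H4 on the same strand. WDR25 averaged 178 counts at day 5, against 703 counts at day 0.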

How the data were processed

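RNA was isolated in TRIzol, cleared of DNA with DNase I and put through a TruSeq RNA kit, per the labels' protocols. The authors deposited expected counts per gene, which are estimated counts not scaled between samples. Per the submitters' processing notes the reads were placed on GRCh38, while the aligner, counter, annotation and strand setting are not given in the sources used here. Of 60843 rows, 172 without a gene name (0.0356 to 0.0475% of counts) were left out, and of the genes behind each of 76 repeated symbols the one with the highest mean was read. Of all values 87.2% were whole, and the rest were rounded. The deposited length column served for values per kb.

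One fit by day over all 6 libraries was made in edgeR 4.0.16 under R 4.3.3, with TMM normalization, filterByExpr (minimum count 10, minimum total 15), the two-sided quasi-likelihood test with 3 residual degrees of freedom, and Benjamini-Hochberg adjustment over 16327 genes. The standard error is the size of the log2 fold change divided by the square root of F. The common biological coefficient of variation was 3.33%. In simulated data for day 2 against day 0 (15957 genes tested, 200 changed), 65.7, 71.6 and 86.4% of the changed genes were recovered at 1.5, 2 and 4-fold, with 8 false calls. Libraries of a day differed by more than counting noise (chi-square per gene 2.31 to 2.43), so none was a copy of another.

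Members and gene lists were chosen with earlier results of these data known, and lists are described by counts and medians without a test. Full values were given for the 5 cytosolic and 4 mitochondrial called genes of largest change in each comparison, for genes called in opposite directions in the 2 steps, and for the neighbouring pair. From the companion lists, examples came from the 3 genes of lowest adjusted p in each comparison and a set that included ATF4, DDIT3, ASNS, EIF2AK4 and the scaffold genes. QARS1, KARS1, SARS1, TARS3 and TSFM were picked out after their values were seen. Some genes that these rules name are not reported here one by one or drawn in the figures, but they are part of the counts, sums and medians. Exon overlaps are from GENCODE release 29 (GRCh38), printed sequences from RefSeq (GRCh38.p14). Alternatives were RLE size factors, library totals without TMM factors, no filter or a stricter one (1 CPM in 4 or more libraries), DESeq2 1.42.0, only the days compared, a replicate block, glmTreat at 1.5-fold and leaving out each library. The lowest and highest adjusted p given over the alternatives leave out glmTreat, which asks another question. Leaving out IGFBP5 was added after seeing the data.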

Additional observations from a re-analysis of the deposited data

How the results depend on the processing

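Library totals in place of TMM factors moved the median of all genes by -0.18 at day 2 and -0.21 at day 5 against day 0, and the class medians with it. At day 2 this gave 3 cytosolic and 1 mitochondrial genes higher, medians of -0.64 and -0.18, and log2 fold changes of -0.09 for NARS1 and -0.01 for IARS2. For day 5 against day 0 it gave 1 cytosolic gene higher, medians of -0.55 and -0.23, and -0.15 for TARS1 and -0.20 for TARS2. The gap between the class medians was -0.46 and -0.32 under either scaling. A change of scaling moves all genes by about the same amount, so it could not alter this gap and is no check of it. With a library left out the gap ran from -0.59 to -0.35 at day 2 and from -0.37 to -0.16 at day 5 against day 0. In the second comparison it was -0.16 without day 5 replicate 2 and -0.22 without day 0 replicate 2. DESeq2 called 3 mitochondrial genes higher at day 2. At day 5 against day 0, 1 cytosolic gene was called higher with DESeq2, RLE size factors, no count filter, only the 2 days compared, or without IGFBP5, and the cytosolic median was -0.39, -0.38, -0.39, -0.36 and -0.37 in that order, and -0.32 with the stricter filter. The mitochondrial median was -0.07 with DESeq2 and with no filter. The cause of these smaller shifts was not tested. glmTreat, which asks for more than 1.5-fold by construction, called 4611 genes at day 2 against day 0 (8 cytosolic lower and 0 higher, 2 mitochondrial lower and 1 higher), 5771 at day 5 against day 0 (7 and 1 cytosolic, 1 and 0 mitochondrial) and 4728 at day 5 against day 2 (2 and 0 cytosolic, 3 and 1 mitochondrial). With each library left out in turn, 3 to 5 mitochondrial genes were higher at day 2, and their median ran from -0.11 to 0.12. At day 5 against day 0, 1 to 2 cytosolic genes were higher, and the medians ran from -0.41 to -0.31 (cytosolic) and from -0.16 to -0.03 (mitochondrial).

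Among the calls lost without 1 library, with the highest adjusted p in edgeR, were at day 2 against day 0 NARS1 (0.306, without day 2 replicate 2, and lost without any other library but day 2 replicate 1), TARS2 (0.144, without day 2 replicate 1 or day 0 replicate 2) and KARS1 (0.218, without day 0 replicate 2). At day 5 against day 0 they included LARS1 (0.205), without day 5 replicate 1 or either day 0 library, and AARS2 (0.389), without day 5 replicate 1 or day 0 replicate 2. In the second step they were AARS2 (0.426, without day 5 replicate 2 or day 2 replicate 1), TARS2 (0.142, without day 2 replicate 1 or day 5 replicate 1), LARS1 (0.0528, without day 5 replicate 1) and KARS1 (0.0597, without day 5 replicate 2). The replicate numbers did not pair the libraries (correlations of 0.00269, -0.00241 and -0.00503 between days), and a replicate block gave 10806, 11297 and 10642 called genes and changed 0 calls among the synthetases. The 9 genes with means under 20 CPM on all 3 days were mitochondrial and had standard errors of 0.11 to 0.20, so changes of that size were not detectable in them at this depth. Some larger changes did not pass either, such as -0.39 ± 0.19 for WARS2 in the second step.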
